A study of Rattus norvegicus with 8 samples.

Results

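Interferon-stimulated genes were followed in the liver of rats given fatty chow and fructose to drink. The set held 38 rat genes named by symbol, and their probes were those whose RefSeq accession belongs to one of these symbols. In this way 31 of the 38 genes had 39 probes on the array, and 30 genes passed the filter on dim probes and were tested among 25121 features. Gbp5 had a probe but was well above background on 0 of 4 control and 1 of 4 Eucommia arrays, so it was not tested. Rigi, Oas2, Oas3, Igtp, Xaf1, Parp14 and Sp100 were matched by no accession and were not analysed here. The liver RNA came from male rats of the Wistar/ST strain, 4 samples in the Control group and 4 in the Eucommia group. The Control group received only the diet and the fructose water for 5 weeks. The Eucommia group received the same plus an extract of leaves of Eucommia ulmoides, a tree used in herbal teas, given by mouth in the drinking water. Both groups thus carried the dietary load, and no group on ordinary chow was analysed here. Each sample was hybridised to an Agilent 1-colour array. The labels number the samples without tying every array to its own rat, so a p-value here measures only how far these samples spread, which may be technical.

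Interferons are secreted proteins that cells release on sensing foreign or misplaced nucleic acid. Type I interferons bind a receptor whose kinases phosphorylate factors such as Stat2. Stat2 joins Irf9 in a complex that binds the interferon-stimulated response element (ISRE) of target genes, whereas interferon gamma acts mainly at the gamma-activated sequence (GAS). The target genes encode RNA sensors, nucleases, GTPases and other proteins that limit virus growth, together with factors that feed back on the signal. In the liver both hepatocytes and Kupffer cells, the resident macrophages, respond to interferon. In RNA from whole tissue, fewer cells of a type and less RNA per cell cannot be told apart.

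The promoters of these genes are shown first because the set is defined by its response to a signal that reaches DNA at short sequence elements. RefSeq promoter windows of the GRCr8 build, from 250 bases before to 50 bases after each annotated start (300 bases in all), were found for 30 of the 38 genes. The entries for Rigi, Dhx58, Oas2, Ifit2, Mx2, Adar, Isg15 and Usp18 were missing. The ISRE core was searched as TTTC, any 2 bases and TTTC, which reads GAAA, any 2 bases and GAAA on the other strand, and overlapping matches were counted. It was present in 20 of the 30 genes (66.7%), against 3.92% of 33469 promoter windows of the same length. The GAS letters TTCNNNGAA, which read the same on both strands, were present in 8 of the 30 (26.7%), against 8.87% of all windows. A match is a string of letters and was not tested as a binding site. The sequences below are the bases before the annotated start, written 5′ to 3′ along the gene, with ISRE core matches in capitals. Ifit3, which was called lower in the Eucommia group, and Oasl2, which was not called, each held 1 match. Irf7 encodes a factor of the pathway itself, and Oas1a and Bst2 each held 2 overlapping matches. Oasl and Irf9, which were also called lower, held no match in their windows. Ifit2, the remaining gene called lower, had no window.
Ifit3 (chr1:241527076-241527325, plus strand): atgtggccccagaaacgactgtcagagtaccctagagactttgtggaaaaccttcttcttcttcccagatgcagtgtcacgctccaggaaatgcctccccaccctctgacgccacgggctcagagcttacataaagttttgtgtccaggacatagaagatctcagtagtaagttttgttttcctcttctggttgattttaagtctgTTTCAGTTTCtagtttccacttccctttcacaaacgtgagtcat
Oasl2 (chr12:47383186-47383435, minus strand): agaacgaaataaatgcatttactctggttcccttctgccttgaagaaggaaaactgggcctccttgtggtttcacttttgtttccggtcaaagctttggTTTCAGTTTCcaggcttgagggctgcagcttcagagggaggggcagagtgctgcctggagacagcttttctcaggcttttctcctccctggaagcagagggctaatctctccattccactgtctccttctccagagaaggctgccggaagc
Irf7 (chr1:205800024-205800273, minus strand): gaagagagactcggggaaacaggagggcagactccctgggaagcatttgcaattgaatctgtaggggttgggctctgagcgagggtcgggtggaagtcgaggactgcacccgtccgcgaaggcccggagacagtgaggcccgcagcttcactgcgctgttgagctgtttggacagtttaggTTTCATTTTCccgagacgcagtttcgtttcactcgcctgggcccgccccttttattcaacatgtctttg
Oas1a (chr12:41330216-41330465, plus strand): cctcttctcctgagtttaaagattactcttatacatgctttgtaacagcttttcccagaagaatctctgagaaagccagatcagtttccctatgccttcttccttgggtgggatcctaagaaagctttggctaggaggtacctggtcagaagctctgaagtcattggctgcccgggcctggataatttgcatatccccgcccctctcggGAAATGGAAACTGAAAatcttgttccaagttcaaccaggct
Bst2 (chr16:18254968-18255217, minus strand): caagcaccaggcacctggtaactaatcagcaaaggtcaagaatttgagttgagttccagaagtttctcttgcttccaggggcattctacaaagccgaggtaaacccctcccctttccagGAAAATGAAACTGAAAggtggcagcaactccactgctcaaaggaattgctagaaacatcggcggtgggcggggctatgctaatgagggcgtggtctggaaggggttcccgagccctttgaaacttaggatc
Oasl (chr12:47356293-47356542, minus strand): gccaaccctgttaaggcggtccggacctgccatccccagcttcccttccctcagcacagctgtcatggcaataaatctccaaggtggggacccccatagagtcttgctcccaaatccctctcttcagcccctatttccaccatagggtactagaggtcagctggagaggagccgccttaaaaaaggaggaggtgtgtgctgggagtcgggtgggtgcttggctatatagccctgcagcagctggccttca
With the base before the start counted as -1, the match lay at -44 to -35 in Ifit3, at -69 to -60 in Irf7 and at -151 to -142 in Oasl2. The overlapping matches began at -41 and -35 in Oas1a and at -131 and -125 in Bst2. Among tested genes with a window, the median difference (log2) between groups was -0.27 for the 15 with an ISRE core and -0.30 for the 9 without one. Of these, 1 of the 15 and 2 of the 9 were called lower, beside 6.17% of all features.

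**Figure D1:**
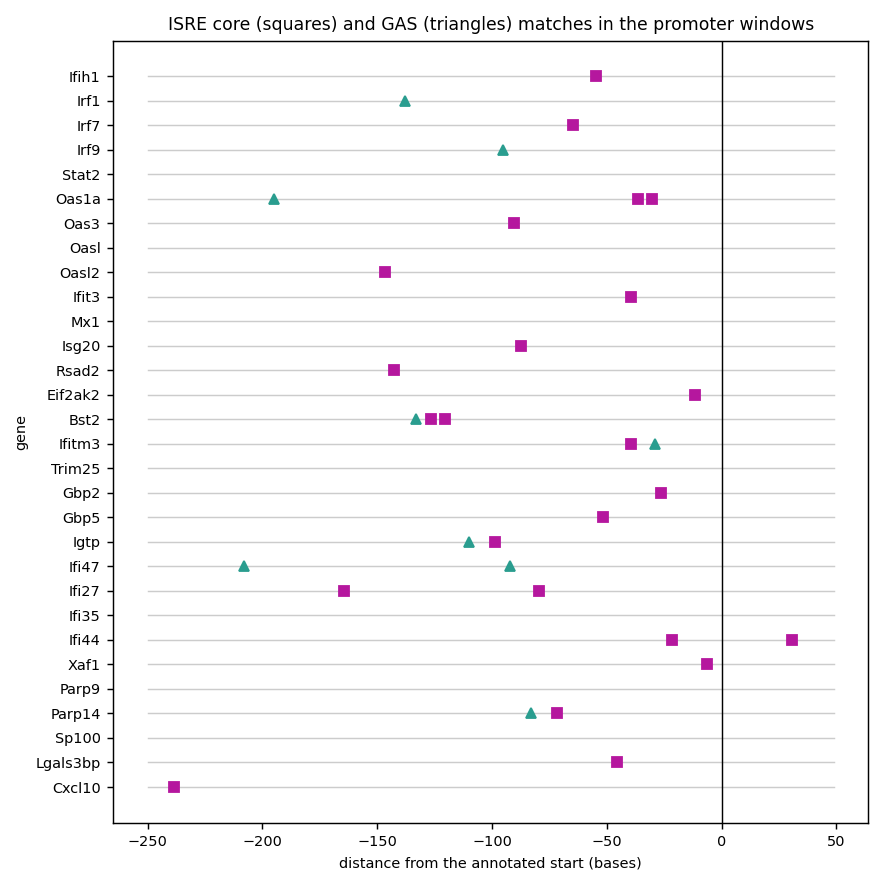
Matches to the ISRE core (squares) and to GAS (triangles) in the promoter windows of the 30 genes with an entry, plotted by distance from the annotated start in bases. ISRE core matches occurred in 20 genes and GAS matches in 8, and only Ifi44 had an ISRE core match after the start.

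Levels are given on a log2 scale relative to each array's 75th percentile of signal, so that 0 is that percentile, and differences are Eucommia minus control. The control arrays all lay on 1 slide and the Eucommia arrays all on another, with separate scans. Slide and group therefore cannot be told apart in any value here. Of the spots, 58.9% to 61.5% were well above background on control arrays and 69.3% to 71.9% on Eucommia arrays. The lowest level well above background lay between -4.42 and -4.20 on control arrays and between -5.34 and -5.18 on Eucommia arrays. All 12 hepatocyte markers were measured and their summed linear level was 5767 to 6711 times the 75th percentile on control arrays and 5117 to 5982 times it on Eucommia arrays.

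The interferon-stimulated genes were lower on average on the Eucommia arrays, but few of them changed beyond the spread between arrays. By limma 4 of the 30 tested genes fell (13.3%) and 0 rose at an adjusted p under 0.05, where 6.17% of all 25121 features fell and 18.4% rose. The 4 were Oasl, Ifit3, Ifit2 and Irf9. At an unadjusted p under 0.05, 10 of the 30 genes were lower, beside 12.5% of all features, and 0 were higher. The fitted difference was below 0 for 26 of the 30, beside 47.4% of all features and 53.7% of those above background on every array, and its median was -0.30, beside 0.02 over all features. Eucommia values all lay below control values for 5 of the 30 genes (16.7%), namely Ifih1, Irf9, Stat2, Oasl and Ifit3, where this held for 8.73% of all features. They lay above control values for 0 of the 30, beside 19.8% of all features. Over the 20106 features above background on all 8 arrays, 2 of the 27 genes of the set among them fell, Ifit2 and Irf9, beside 6.85% of those features. These shares describe the genes that passed the filter on dim probes. The count depended on scaling, since centring each array on its median moved the median of all features to -0.24, that of the set to -0.55 and its lower calls to 12, and higher features then made up 32.2% of all calls, beside 74.9% here.

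**Figure D2:**
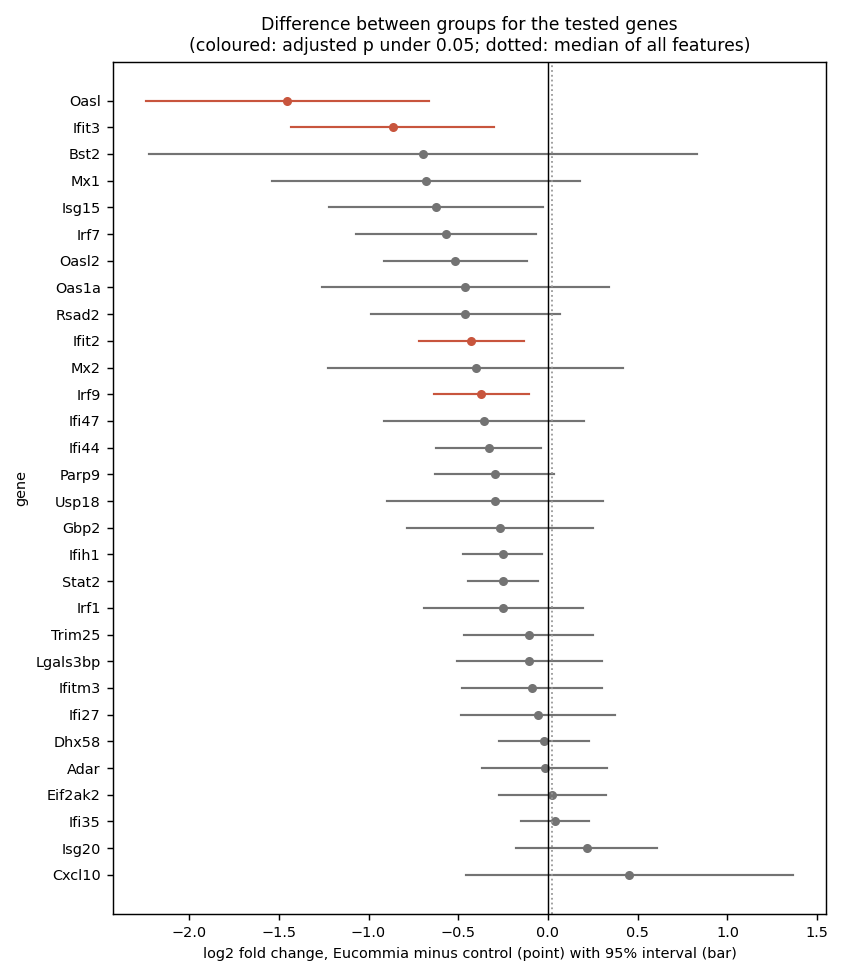
Log2 fold change of each of the 30 tested genes, Eucommia minus control (points), with its 95% interval from the limma fit (bars) and the median of all features (dotted line). The coloured genes Oasl, Ifit3, Ifit2 and Irf9 had an adjusted p under 0.05, and the point estimates ran from -1.45 for Oasl to 0.45 for Cxcl10. The size for Oasl is uncertain, since its Eucommia mean lay under the lowest level well above background.

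The oligoadenylate synthetases make a short RNA-like messenger that activates RNase L, and Oasl and Oasl2 are the related synthetase-like proteins. Oasl had log2 levels of -4.0, -3.81, -4.69 and -3.70 on control arrays 1 to 4 and of -6.34, -4.78, -5.15 and -5.73 on Eucommia arrays 1 to 4. Every Eucommia value was below every control value, though the highest Eucommia and the lowest control value nearly met. Its log2 fold change was -1.45 ± 0.35 (SE; adjusted p = 0.0148 by limma). Only 3 control arrays and 1 Eucommia array measured Oasl well above background, so it passed the filter mostly through the control arrays. Its Eucommia mean of -5.50 lay under those arrays' mean limit of -5.27. The size of the difference is therefore uncertain, and no linear fold is given. With normexp background correction, which adds an offset, its difference was -0.23 and its adjusted p 0.0519 by limma.

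Oasl2 had levels of -0.32, -0.09, -0.19 and 0.30 on the control arrays and of -0.79, -0.19, -0.76 and -0.63 on the Eucommia arrays. Eucommia array 2 lay among the control arrays and the other three lay below them. The difference was -0.52 ± 0.18 (adjusted p = 0.0651 by limma). Without Eucommia replicate 2 it was -0.65 and passed (0.0234).

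Oas1a, one of several rat copies of the Oas1 gene, separated the Eucommia arrays into a low and a high pair. Its control levels were 3.14, 3.19, 2.93 and 3.24, and its Eucommia levels were 2.10, 3.35, 1.83 and 3.38. Arrays 1 and 3 were thus below all controls, while arrays 2 and 4 were above all of them. The difference of -0.46 ± 0.35 did not pass (adjusted p = 0.394 by limma). The Oas1 copies resemble each other, probe sequences were not used here, and signal from another copy was not tested.

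The Ifit proteins act as a family against viral RNA and its translation. Ifit3 had levels of -4.03, -3.78, -4.23 and -3.08 on the control arrays and of -4.89, -4.36, -4.45 and -4.88 on the Eucommia arrays. All Eucommia values were lower than all control values, and the widest spread was in the controls, where array 4 stood highest. The difference was -0.87 ± 0.25 (adjusted p = 0.0338 by limma), a 1.82-fold lower mean. Ifit3 was well above background on 3 control and 4 Eucommia arrays and lay near the limit in both groups. With normexp the difference was -0.19 (adjusted p = 0.107 by limma).

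Ifit2 was measured further from the limit. Its brighter probe had levels of 0.33, 0.50, 0.07 and 0.50 on the control arrays and of -0.24, -0.16, -0.04 and 0.13 on the Eucommia arrays. The groups met at control array 3 and Eucommia array 4, and the other Eucommia arrays were below every control. The difference of -0.43 ± 0.13 passed (adjusted p = 0.0403 by limma), a 1.34-fold lower mean. A dimmer Ifit2 probe was well above background on 0 of 8 arrays and was not tested.

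Single arrays decided several of these calls. The count of 4 lower genes was 1 without control replicate 2, Eucommia replicate 1 or Eucommia replicate 3, 2 without control replicate 1 or 4, and 5 without Eucommia replicate 2. Oasl passed in each of the 8 limma fits that left 1 array out (adjusted p = 0.00813 to 0.0465). Ifit3 lost its call when control replicate 2 was left out (adjusted p = 0.0669 by limma), and likewise Eucommia replicate 1, 3 or 4 (0.0872, 0.0529 and 0.0889). Ifit2 did not pass without control replicate 1, 2 or 4 (0.0693, 0.0971 and 0.0977) or Eucommia replicate 1, 2 or 3 (0.104, 0.105 and 0.0769). Its difference stayed between -0.52 and -0.37 in these fits.

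**Figure D3:**
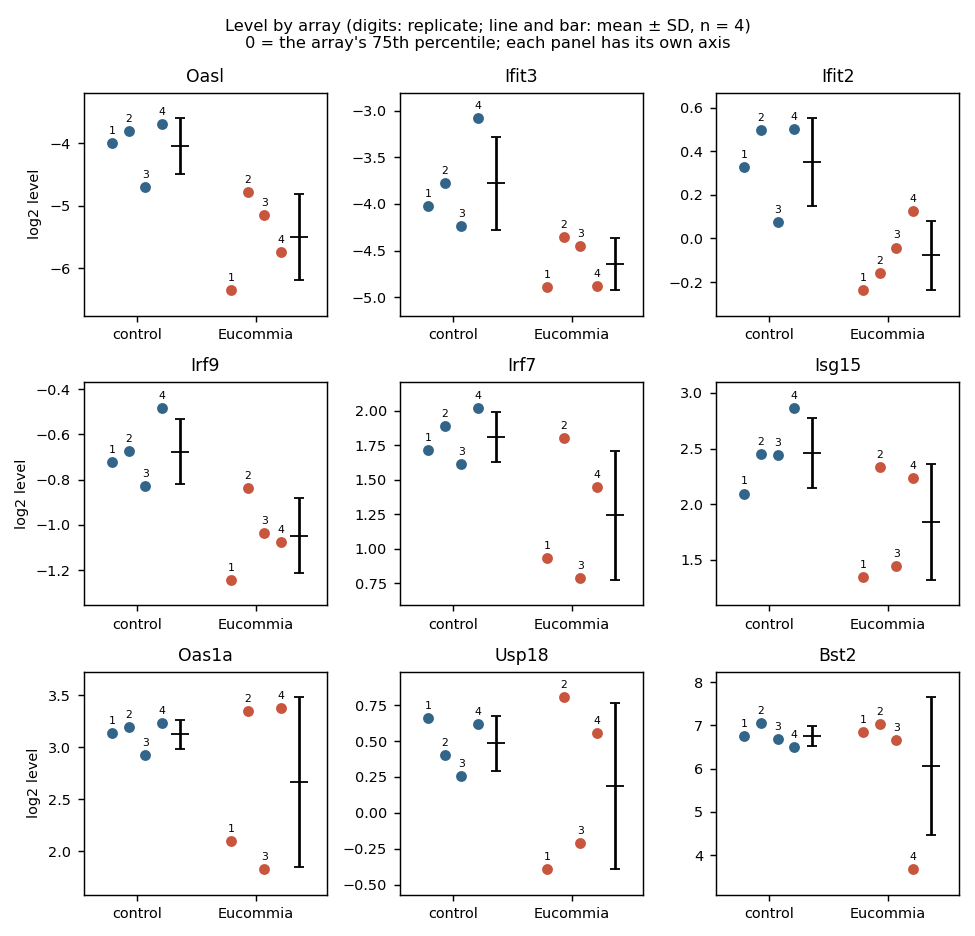
Log2 level of 9 genes on each array (points, with the replicate number), with the group mean ± SD (n = 4); each panel has its own axis. Oasl, Ifit3 and Irf9 show no overlap between groups, Oas1a and Usp18 show Eucommia arrays 1 and 3 low and arrays 2 and 4 within or above the control range, and Bst2 is low on Eucommia array 4 alone.

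Among the transcription factors of the pathway, 1 of 4 fell and all 4 differences were below 0, beside 6.17% and 47.4% of all features. Irf9, the DNA-binding partner of Stat2, had levels of -0.72, -0.67, -0.83 and -0.48 on the control arrays and of -1.24, -0.84, -1.04 and -1.07 on the Eucommia arrays. Eucommia array 2 came within a narrow margin of the lowest control, and the others were clearly lower. The difference was -0.37 ± 0.12 (adjusted p = 0.0479 by limma), a 1.29-fold lower mean. Without single arrays Irf9 passed only when control replicate 3 (adjusted p = 0.0465 by limma) or Eucommia replicate 2 (0.0359) was left out. Its adjusted p was 0.0716, 0.0913 and 0.112 without control replicate 1, 2 and 4, and 0.119, 0.0944 and 0.0916 without Eucommia replicate 1, 3 and 4.

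Stat2, which binds Irf9, was the most uniform within groups of these factors. Its levels were 0.33, 0.54, 0.36 and 0.49 on the control arrays and 0.17, 0.11, 0.20 and 0.23 on the Eucommia arrays. The groups did not overlap, yet the difference was small, at -0.25 ± 0.09, and did not pass (adjusted p = 0.0684 by limma). With normexp it passed at -0.27 (adjusted p = 0.0130 by limma).

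Irf7, which amplifies interferon production and is itself induced, varied far more within the Eucommia group. Its levels were 1.71, 1.89, 1.61 and 2.02 on the control arrays and 0.93, 1.80, 0.79 and 1.45 on the Eucommia arrays. Arrays 1 and 3 were low, array 4 was slightly below the controls and array 2 was among them. The difference was -0.57 ± 0.22 (adjusted p = 0.0986 by limma). Without Eucommia replicate 2 it was -0.75 and passed (0.0229). Irf1, an activator induced most strongly by interferon gamma, had -0.76, -1.07, -0.44 and -0.54 on the control arrays and -1.13, -0.59, -0.77 and -1.32 on the Eucommia arrays. These ranges overlapped, and the difference was -0.25 ± 0.19 (adjusted p = 0.407 by limma).

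Isg15 encodes a ubiquitin-like protein that is attached to other proteins, and Usp18 removes it and also dampens receptor signalling. Isg15 had levels of 2.10, 2.45, 2.44 and 2.87 on the control arrays and of 1.34, 2.34, 1.45 and 2.24 on the Eucommia arrays. Eucommia arrays 1 and 3 were below every control and arrays 2 and 4 fell among them, the same division as in Oas1a. The difference of -0.62 ± 0.26 did not pass (adjusted p = 0.125 by limma). Usp18 showed 0.66, 0.40, 0.26 and 0.62 on the control arrays and -0.39, 0.81, -0.21 and 0.55 on the Eucommia arrays by its brighter probe. Arrays 1 and 3 were again the low ones. Its difference was -0.30 ± 0.26 by that probe and -0.64 ± 0.26 by the dimmer one, and neither passed (adjusted p = 0.473 in the fit by gene and 0.118 in the fit by probe, by limma). Trim25, a ubiquitin ligase that activates the sensor RIG-I, had values from 4.14 to 4.87 on control arrays and from 4.27 to 4.61 on Eucommia arrays, with a difference of -0.11 ± 0.16 (adjusted p = 0.675 by limma).

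Of the RNA sensors, Ifih1 (MDA5) had -1.79, -1.60, -1.83 and -1.75 on the control arrays and -1.94, -1.91, -2.16 and -1.96 on the Eucommia arrays. All Eucommia values were lower by a small margin. The difference of -0.25 ± 0.10 did not pass (adjusted p = 0.0938 by limma), but it did after quantile normalization (-0.41, adjusted p = 0.00998 by limma), cyclic loess (-0.29, 0.0367) and normexp (-0.19, 0.0178). Dhx58 (LGP2), a regulator of the other sensors, ran from -0.75 to -0.43 on control arrays and from -0.78 to -0.51 on Eucommia arrays. Its difference had a 95% interval from -0.27 to 0.23.

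The remaining antiviral effectors gave wide spreads and no further calls. Mx1 and Mx2 are dynamin-like GTPases that trap viral particles. Mx1 had -2.69, -3.77, -3.93 and -2.48 on the control arrays and -4.39, -3.19, -4.01 and -3.99 on the Eucommia arrays, with a difference of -0.68 ± 0.38 (adjusted p = 0.240 by limma). Mx2 had -0.47, -1.69, -0.98 and -0.33 on the control arrays and -1.63, -0.39, -1.56 and -1.49 on the Eucommia arrays. Its difference was -0.40 ± 0.36 (adjusted p = 0.477 by limma). In both genes control arrays 1 and 4 and Eucommia array 2 were the high ones, and the range within each group exceeded the difference between groups. Rsad2 (viperin), which makes a chain-terminating nucleotide, had 0.52, -0.10, 0.08 and 0.73 on the control arrays and -0.61, -0.24, 0.0019 and 0.24 on the Eucommia arrays. Control arrays 1 and 4 were again high, and the difference of -0.46 ± 0.23 did not pass (adjusted p = 0.194 by limma).

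Isg20, an exonuclease, went the other way, with a difference of 0.22 ± 0.17 (adjusted p = 0.420 by limma), which rested on both arrays numbered 4. Control array 4 had -0.29 (other controls 0.10 to 0.30) and Eucommia array 4 had 0.70 (others 0.08 to 0.20). The difference was 0.098 without the former and 0.076 without the latter. Adar, which edits adenosine in double-stranded RNA, had a difference whose 95% interval ran from -0.37 to 0.33. Ifitm3, a membrane protein that blocks virus entry, had one from -0.48 to 0.30. Neither gene passed (adjusted p = 0.944 and 0.75 by limma).

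Eif2ak2 (PKR), the kinase that halts translation on sensing double-stranded RNA, gave different answers by its probes. The brighter probe, which represented the gene, had 1.32, 1.48, 1.42 and 1.80 on the control arrays and 1.67, 1.66, 1.44 and 1.34 on the Eucommia arrays. The groups overlapped, with a difference of 0.025 ± 0.13 (adjusted p = 0.916 by limma). The dimmer probe had -1.53, -1.42, -1.71 and -1.64 on the control arrays and -1.97, -2.11, -2.50 and -2.66 on the Eucommia arrays. It did not overlap between groups and fell by 0.74 ± 0.16 on the log2 scale in a fit by probe (adjusted p = 0.00997 by limma). Both probes were well above background on all 8 arrays and carry the same RefSeq accession, and what separates them was not tested.

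Bst2 (tetherin), which holds budding virus at the cell surface, was low on 1 array alone. Its brighter probe had 6.76, 7.06, 6.69 and 6.50 on the control arrays and 6.84, 7.03, 6.67 and 3.68 on the Eucommia arrays. Eucommia array 4 was thus 7.94-fold below the next lowest array of its group, while the other three matched the controls. The second probe gave the same picture, with 6.13, 6.40, 6.08 and 5.97 on the control arrays and 6.15, 6.33, 6.05 and 3.02 on the Eucommia arrays. Before scaling, the signals of Eucommia array 4 were 2805 and 1771, where the other Eucommia arrays had at least 23243 and 15085. A gap at least that large below the rest of the Eucommia group occurred in 8 of 25121 features (0.0318%), 3 of them on array 4. The group difference of -0.70 ± 0.67 (adjusted p = 0.508 by limma) rested on that array, and without Eucommia replicate 4 it was 0.094 (adjusted p = 0.720 by limma).

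**Figure D4:**
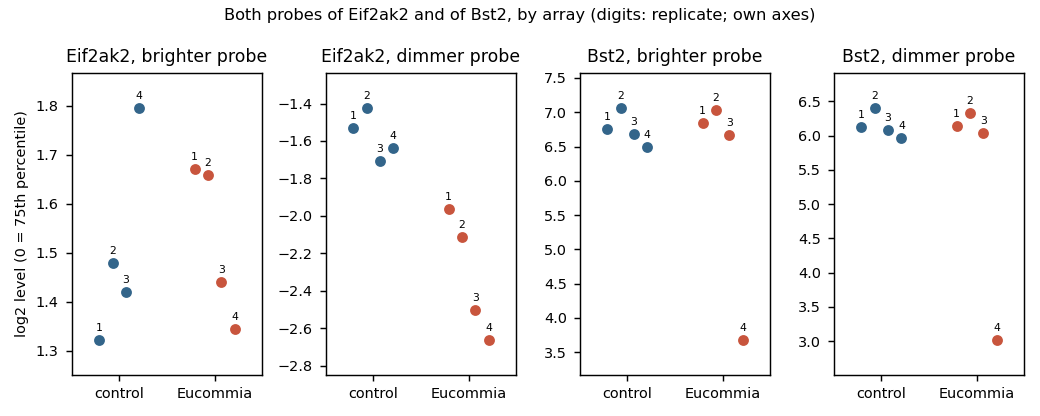
Log2 level by array (points, with the replicate number) for both probes of Eif2ak2 and of Bst2; each panel has its own axis. The Eif2ak2 probes differ, with overlap in the brighter and none in the dimmer, while both Bst2 probes place Eucommia array 4 far below the other 7 arrays.

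The interferon-induced GTPases attack the vacuoles of intracellular microbes. Gbp2 had 1.1, 0.58, 0.89 and 1.45 on the control arrays and 0.40, 1.26, 0.61 and 0.70 on the Eucommia arrays, with a difference of -0.27 ± 0.23 (adjusted p = 0.448 by limma). Ifi47 had -0.60, -0.73, -1.22 and -0.35 on the control arrays and -1.38, -0.66, -0.77 and -1.50 on the Eucommia arrays. Its difference was -0.36 ± 0.24 (adjusted p = 0.340 by limma). Control array 4 and Eucommia array 2 were the highest of their groups in both.

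Of the other induced genes 0 of 6 tested passed. Ifi44 had 2.74, 2.80, 2.86 and 2.91 on the control arrays and 2.35, 2.52, 2.29 and 2.84 on the Eucommia arrays. Its controls agreed closely, and Eucommia array 4 alone lay among them. The difference of -0.33 ± 0.13 did not pass (adjusted p = 0.0997 by limma), but it did without Eucommia replicate 4, at -0.44 (adjusted p = 0.0134 by limma). Its other probes gave -0.24 and -0.21. Parp9, which acts on histones and ubiquitin in the interferon response, had 1.78 to 2.18 on control arrays and 1.33 to 1.86 on Eucommia arrays (difference -0.30 ± 0.15, adjusted p = 0.180 by limma). Lgals3bp, a secreted glycoprotein, showed the same division as Isg15, with 1.61 to 1.86 on control arrays and 1.21, 2.05, 1.44 and 1.77 on the Eucommia arrays (difference -0.10 ± 0.18).

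Ifi27 and Ifi35 differed little. The 95% interval of the difference ran from -0.49 to 0.37 for Ifi27 and from -0.15 to 0.23 for Ifi35. Cxcl10, a chemokine that draws T cells, had the highest estimate of the set but also a wide spread. It had -0.74, -1.86, -1.28 and 0.077 on the control arrays and -0.93, 0.17, -0.58 and -0.66 on the Eucommia arrays. The difference of 0.45 ± 0.40 did not pass (adjusted p = 0.468 by limma).

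The genes of the set moved together between arrays of the same group. Within the Eucommia group, array 2 was the highest for 19 of the 30 genes and array 1 the lowest for 18, beside 19.0% and 24.9% of all features. Within the control group, array 4 was the highest for 20 of the 30 and array 3 the lowest for 16, beside 23.7% and 19.9% of all features. Relative to its group mean, the median gene of the set stood at 0.28 on Eucommia array 2 and at -0.22 on Eucommia array 1, where the median of all features was -0.0064 and -0.0052. Eucommia array 1 lay below every control for 22 of the 30 genes, array 3 for 15, array 4 for 13 and array 2 for 8. Over all features these shares were 23.8%, 25.2%, 24.6% and 25.7%, so the count on array 2 was near the background.

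The SD between arrays of a group had a median over the 30 genes of 0.23 in the control group and 0.32 in the Eucommia group, beside 0.20 and 0.17 over all features. For 19 of the 30 the SD was larger in the Eucommia group.

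**Figure D5:**
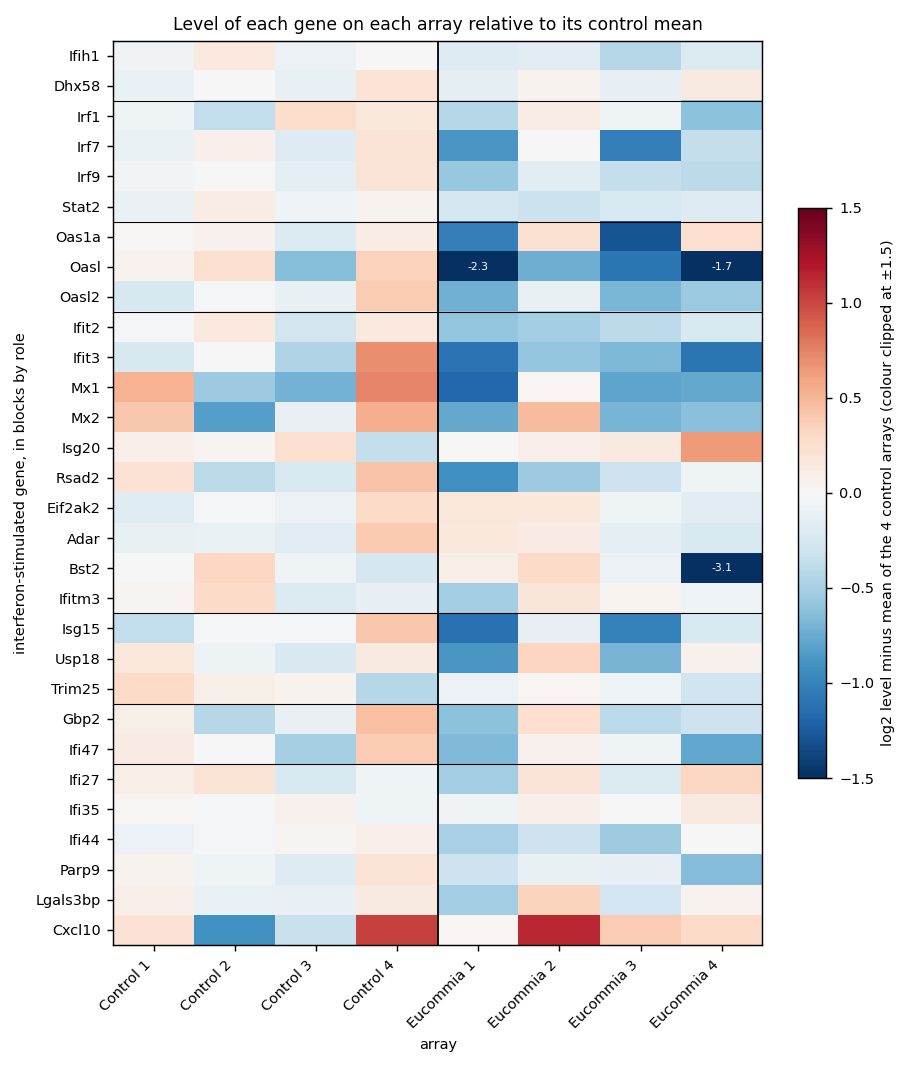
Log2 level of each of the 30 tested genes on each array minus the mean of its 4 control arrays, in blocks by role; values beyond ±1.5 are written in the cell. Eucommia arrays 1 and 3 are mostly below the control mean, Eucommia array 2 is close to it for many genes, and the single value of -3.1 is Bst2 on Eucommia array 4.

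Counted by gene, Kupffer cell and macrophage markers had the same highest and lowest arrays as the set in the Eucommia group. In the control group they shared its lowest array, but not its highest. Of 16 listed markers 13 were tested, all 13 differences were below 0 with a median of -0.45, and 1 passed. Of all features 47.4% were below 0, 6.17% were called lower and 18.4% higher. Eucommia array 2 was the highest of its group for 11 of the 13 and array 1 the lowest for 11. Control array 1 was the highest for 10 and control array 4 for 3, while control array 3 was the lowest for 7 and control array 2 for 6. The summed linear level of the 13 ran from 152 (array 3) to 252 (array 4) times the 75th percentile on control arrays. On Eucommia arrays it ran from 121 (array 3) to 217 (array 2) times it, with 132 on array 1. The order of the arrays by this sum depends on Lyz2, which varied widely within both groups. Lyz2 had levels of 2.25, 5.16, 2.13 and 5.21 on the control arrays and of 4.41, 5.64, 1.50 and 1.67 on the Eucommia arrays. The defining marker Clec4f had levels of 5.35 to 6.05 on control arrays and of 4.97 to 5.68 on Eucommia arrays. The part of these cells in the lower interferon-stimulated genes was not tested. T and NK cell markers had 11 tested with a median of 0.09 (1 higher, 0 lower), and B cell markers 2 tested with -0.025. Of plasmacytoid dendritic cell markers Tcf4 had -0.45, and Ccr9 passed the filter through the Eucommia arrays alone. Endothelial markers had a median of -0.17 over 5 tested (1 higher, 0 lower), with 3 below 0. Of these Cdh5 rose by 1.01 (log2), and Pecam1 passed the filter through the Eucommia arrays alone. Hepatocyte markers had -0.18 over 12 (0 higher, 1 lower), with 10 below 0. Of the neutrophil markers S100a8 and S100a9 had -0.080 and -0.13, while Elane and Csf3r were well above background on 0 of 4 control and 4 of 4 Eucommia arrays. Pancreatic acinar markers had a median of 0.62 over 5 tested (2 higher, 0 lower), with 2 below 0. Skeletal muscle markers had 0.88 over 2 tested (2 higher, 0 lower). Ngp, Camp and Cxcr2 of the neutrophil list, and Acta1, Ckm, Myh4 and Tnnt3 of the muscle list, were not well above background on any array. The same held for Prss1 of the acinar list and Cd2 of the T and NK cell list.

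Other genes of the pathway were called in both directions, at shares near or under the background. Of 115 listed, 74 had a probe and 67 were tested, of which 6 were lower and 8 higher, where 6.17% of all features were lower and 18.4% higher. Without control replicate 2 or Eucommia replicate 3 the lower count was 3. The fitted difference was below 0 for 48 of the 67, beside 47.4% of all features. Among 36 tested genes of a wider interferon-stimulated list, 3 fell and 2 rose, and 28 differences were below 0, with a median of -0.25. Psmb8, an immunoproteasome subunit, fell by 0.62 ± 0.09 on the log2 scale and Casp1, an inflammatory protease, fell by 0.53 ± 0.12. Sp110 and Mov10 rose by 0.65 ± 0.11 and 0.47 ± 0.09 (adjusted p for these 4 from 0.00101 to 0.0128 by limma). The lists were chosen with earlier results of these data known.

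Receptors and signal carriers had 2 of 14 lower and 2 higher. Jak1, a kinase of the receptors, fell by 0.36 ± 0.09 (log2), and Ptpn11, a phosphatase, fell by 0.62 ± 0.19 (adjusted p = 0.0202 and 0.0407 by limma). The feedback inhibitor Socs3 rose by 1.85 ± 0.20 (adjusted p = 0.000155 by limma). Socs1, another such inhibitor, was well above background on 0 of 4 control arrays and passed the filter through the Eucommia arrays alone. Its Eucommia mean was 1.74-fold its control mean, a log2 difference of 0.80 (95% interval 0.58 to 1.01). On each control array the probe's own signal lay above the lowest signal well above background, so that limit did not alter the fold. Because of how Socs1 passed the filter, no p-value is given for it, although its call is among the 2 higher ones.

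Nucleic acid sensing had 1 of 14 lower and 2 higher. Tlr9, a DNA sensor, rose by 2.89 ± 0.16 (log2) and the adaptor Sting1 rose by 1.36 ± 0.11 (adjusted p = 4.51e-06 and 3.59e-05 by limma). Tlr4, the endotoxin receptor, fell by 0.57 ± 0.17 (adjusted p = 0.0402 by limma), while Irf2 (-0.40 ± 0.14) did not pass. Of the interferon ligands 2 passed the filter on dim probes. Ifna4 rose by 2.18 ± 0.22 (log2, adjusted p = 9.27e-05 by limma) from a control mean of -3.54. Ifnb1 was likewise well above background on 0 of 4 control arrays, and its Eucommia mean of -4.71 was under the control arrays' limit, so neither a fold nor a direction is given, although its call is among the 8 higher ones. Ifna genes are close copies, and here too signal from another copy was not tested. The higher genes named here from the ligand, receptor and sensing lists were dim, Ifnb1 aside with mean levels from -3.78 (Socs1) to -1.91 (Socs3). Of all features with a mean level under -2, 32.1% were higher, beside 8.33% of those at -2 or above, where Socs3 lies. Ube2l6, the conjugating enzyme for ISG15 and the only gene of that list tested, had -0.42 ± 0.14 (adjusted p = 0.0519 by limma).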

How the data were processed

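RNA was measured on 8 Agilent 1-colour (Cy3) arrays, 4 per group, from 500 ng of total RNA each, per the labels' protocols. Per the file headers, spot intensity was read from the scans by Agilent Feature Extraction (10.1.1.1), and the headers also record that background and spatial trend were removed inside an array. The deposited intensity was not normalized between arrays. The same deposited files carry other values, the flags for outlier, saturated and well-above-background spots, and 0 spots were saturated. The deposited series table equalled these intensities at 100% of 43379 spots, so it is linear and uncentred (medians of 24.2 to 29.6 per array).

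Signals were taken to log2, each array's 75th percentile was subtracted, and control and outlier spots were left out. A probe was kept if 4 or more of the 8 arrays had it well above background (27716 of 41012). Accessions were matched without versions to RefSeq gene names of GRCr8, which named 16336 probes (39.8%) with 13031 symbols. The brightest probe on average stood for a gene, and each unnamed probe stood for itself (25121 features). Rigi is written otherwise in that table and was matched by no accession. The test was 2-sided (limma 3.58.1, R 4.3.3), with Benjamini-Hochberg adjustment over all features and a threshold of 0.05. Array number limits the precision.

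All members found were named, and from each other pathway list the 4 with the smallest p. The members and lists were chosen with earlier results of these data known. Alternatives were other scalings (quantile, median centring, another percentile, cyclic loess), normexp with an offset of 50 on the median signal, the series table, other filters, the mean over probes, trended robust variance, a replicate block and each array left out on the same features. The fit by probe was added after seeing the data.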

Additional observations from a re-analysis of the deposited data

Results flagged for a closer look

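Of 90 groups of 4 arrays examined (the 30 tested genes and 15 other pathway genes, in each group), 8 had an array whose gap to the nearest other array exceeded Dixon's 95% critical value as a share of the group's range. Chance gives such a gap in about 1 in 20 groups. Bst2 on Eucommia array 4 had 3.68, beside 6.67 to 7.03 on the other Eucommia arrays. Mx2 on Eucommia array 2 had -0.39, beside -1.63 to -1.49. Adar on control array 4 had -1.59, beside -2.14 to -2.08. Ifna4 on control array 1 had -4.02, beside -3.41 to -3.36. Ptpn11 had 2.05 on control array 4, beside 2.66 to 2.72, and 2.30 on Eucommia array 1, beside 1.76 to 1.82. Sting1 on control array 4 had -3.76, beside -4.17 to -4.14. Mov10 on control array 2 had -0.18, beside -0.32 to -0.30.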

How the results depend on the processing

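The count of 4 lower members became 12 with median centring, 2 among features above background on all arrays, 2 with the replicate block and 1 to 5 without single arrays. It stayed within 1.5 times (3 to 5) under the other scalings, normexp, the series table, no filter, the mean over probes, the fit by probe and trended variance. No fit by gene called a member higher. Median centring moved the median of all features from 0.02 to -0.24 and that of the members to -0.55, with 32.2% of all calls higher, where the main scaling gave 74.9%. The higher share was 58.8% with quantile normalization, 61.7% with cyclic loess and 59.7% with normexp. In the other settings the members' median ran from -0.38 to -0.24. With the replicate block Oasl and Isg15 (adjusted p = 0.0487 by limma) passed, and Ifit3, Ifit2 and Irf9 did not (0.0717, 0.0726 and 0.0948). Nothing in the labels says that the replicate numbers pair rats. In both groups the number equals the array's position on its slide. Same-numbered arrays had correlations of deviations over features from -0.10 to -0.029, which cannot exclude a pairing. Irf9 did not pass with the percentile taken over the probes detected on every array (0.0706). The cause of these changes was not tested.

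Other pathway genes called lower were 10 with quantile normalization, 34 with median centring, 3 with the percentile taken over the probes detected on every array, 12 with normexp, 12 without a filter, 10 with trended variance and 3 to 6 without single arrays. Those called higher were 5 among features above background on all arrays.

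Signs turned for 9 members with small or single-array differences. Ifi27 was 0.0027 with quantile normalization, 0.014 with cyclic loess, 0.0051 with normexp and -0.18 to 0.097 without single arrays. Eif2ak2 was -0.23 with median centring, -0.041 with normexp, -0.36 as a mean over probes and -0.036 to 0.12 without single arrays. Isg20 (-0.040) and Ifi35 (-0.22) turned with median centring. Dhx58 was 0.013 with the other percentile, 0.035 as a mean over probes and -0.074 to 0.048 without single arrays. Adar was 0.015 with the other percentile and -0.078 to 0.11 without single arrays. Ifitm3 was 0.045 with normexp and -0.18 to 0.052 without single arrays. Without single arrays Lgals3bp ran from -0.25 to 0.033 and Bst2 from -1.02 to 0.094. A slide block could not be fitted, since each slide held 1 group.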
